A study of Mus musculus with 8 samples.

Results

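The metallothioneins and zinc transport genes described here are 9 genes: the metallothioneins Mt1 and Mt2, the zinc sensor Mtf1, the zinc exporters Slc30a1 and Slc30a4, and the zinc importers Slc39a6, Slc39a8, Slc39a10 and Slc39a14. They were taken from the 55414 Ensembl genes of the deposited count table by their symbols. They were picked with the comparison of CLP with Sham in view, where Mt1 had the smallest p of the 9, so their values in that comparison are a description. No p is printed for them, and where the text says which of them passed the threshold over all genes, that call is part of the choice and supports nothing. Each of the 9 symbols matched 1 row, and all 9 passed the filter on low counts, which left 14655 genes. The libraries were made from Kupffer cells, which are macrophages that live in the liver, isolated by fluorescence-activated cell sorting from livers of WT C57BL/6J mice. Of the 8 libraries, 4 came from mice 2 h after CLP (cecal ligation and puncture), surgery that lets gut bacteria into the abdomen and serves as a sepsis model. The other 4 came from mice 2 h after a Sham operation. The labels give no age and no batch, and they do not say that each library came from its own mouse, so the spread between libraries may be partly technical.

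Metallothioneins are small proteins rich in cysteine that hold zinc and copper ions and so buffer the free metal in the cytosol. When free zinc rises, the factor MTF1 binds metal response elements in the promoters of the metallothionein genes and of Slc30a1 and drives their transcription. ZnT proteins (Slc30a genes) move zinc out of the cytosol, across the plasma membrane or into vesicles, and ZIP proteins (Slc39a genes) move it in. In the liver, infection and inflammation are known to raise metallothionein and to draw zinc from the blood.

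Mt1 and Mt2 are immediate neighbours on mouse chromosome 8, in a row of 4 metallothionein genes with Mt3 and Mt4. The promoter windows of Mt1, Mt2 and Slc30a1, the genes for which control by MTF1 is textbook knowledge, are shown here because Mt1 and Mt2 were high together after CLP. Each window runs from 250 bases before to 50 bases after the transcription start given by RefSeq (build GRCm38.p6, plus strand): chr8:94178839-94179138 for Mt1, chr8:94172368-94172667 for Mt2 and chr1:191906531-191906830 for Slc30a1. Capitals mark the core of the metal response element, searched as TGCACNC or TGCGCNC on both strands. A match on the minus strand reads as GNGTGCA or GNGCGCA in the line.
Mt1: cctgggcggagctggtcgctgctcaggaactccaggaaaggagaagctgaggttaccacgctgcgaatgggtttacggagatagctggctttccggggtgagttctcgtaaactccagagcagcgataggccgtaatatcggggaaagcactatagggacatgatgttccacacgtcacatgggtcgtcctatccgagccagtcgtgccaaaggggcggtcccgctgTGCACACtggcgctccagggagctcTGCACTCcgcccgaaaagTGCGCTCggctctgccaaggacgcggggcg
Mt2: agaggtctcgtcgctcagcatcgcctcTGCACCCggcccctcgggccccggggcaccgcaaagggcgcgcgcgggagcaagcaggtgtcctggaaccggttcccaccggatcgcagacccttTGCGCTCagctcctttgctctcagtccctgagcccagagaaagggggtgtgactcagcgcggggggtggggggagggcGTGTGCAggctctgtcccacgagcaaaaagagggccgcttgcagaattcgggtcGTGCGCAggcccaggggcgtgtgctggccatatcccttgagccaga
Slc30a1: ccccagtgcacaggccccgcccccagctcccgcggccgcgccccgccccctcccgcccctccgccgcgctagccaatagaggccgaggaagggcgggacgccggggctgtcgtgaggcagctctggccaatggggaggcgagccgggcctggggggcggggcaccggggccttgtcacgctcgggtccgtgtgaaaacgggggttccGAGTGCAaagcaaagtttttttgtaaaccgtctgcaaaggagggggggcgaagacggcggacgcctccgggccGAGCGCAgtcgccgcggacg

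The Mt1 window held 3 matches and the Mt2 window 4, against at least 3 in 1.97% and at least 4 in 0.517% of the 32851 promoter windows in the same table. The Slc30a1 window held 2, against at least 2 in 7.11% of all windows. In Mt2 the matches TGCACCC and TGCGCTC lay on the plus strand, with first bases at -223 and -128 relative to the start, and 2 more lay on the minus strand. The matches in Mt1 were clustered, with the first base of each from -23 to 21 relative to the start. Where the start is placed matters for these distances and for the number of matches. The 3 Mt1 transcripts of the GENCODE M21 annotation begin at -7, 122 and 152 relative to the RefSeq start. The 2 Mt2 transcripts begin at 46 and 242, so neither starts at the base from which the Mt2 distances are counted. Bases beyond 50 after the RefSeq start were not searched, so sequence just before the starts at 122, 152 and 242 was not covered. Of the other windows, that of Slc30a4 held 3 matches, 1 of the 2 windows of Slc39a8 held 1, and those of Mtf1 and Slc39a10 held none. Slc39a14 had no window in the table. Windows on chromosome 18, where Slc39a6 lies, were left out of the listing of windows, so whether Slc39a6 had one is not known. No match was recorded for it. A match is a run of letters and not a measured binding site.

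Libraries held 23311897 to 28724875 counts over genes. CPM values, which express counts relative to library size, are scaled by TMM, whose factors were 0.801 to 0.837 in CLP and 1.16 to 1.28 in Sham. Scaling by total counts alone moved the median log2 fold change of all genes from -0.04 to -0.59, so small differences are relative to the scaling. CLP replicate 1 stood apart, with a correlation of log2 CPM across genes of 0.968 to 0.972 with the other CLP libraries, beside 0.981 to 0.989 among Sham libraries. Values after ± are SDs for CPM (n = 4) and SEs for log2 fold changes. Kupffer cell markers were abundant in both groups, with a sum over 14 markers of 40920 to 52600 CPM after CLP against 34010 to 42890 CPM after Sham. The lectin Clec4f was the highest at 8920 ± 899.7 CPM after CLP against 7374 ± 740.0 CPM after Sham. Of the 14 markers, 4 rose and 1 fell. That was Slc40a1, at 2450 ± 451.1 CPM after CLP against 4345 ± 352.8 CPM after Sham (edgeR adjusted p = 9.4e-04). Sums over 12 neutrophil markers were 258 to 671 CPM after CLP against 102 to 145 CPM after Sham, and all 10 that were tested rose. Sums over 17 hepatocyte markers were 6776 to 8405 CPM and 5058 to 6538 CPM, and 4 of 17 rose while 1 fell. Sums over 6 platelet markers were 118 to 192 CPM after CLP against 15.2 to 27.8 CPM after Sham, and all 5 that were tested rose. In bulk RNA, more cells of a type and more RNA per cell cannot be told apart.

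Both metallothioneins stood far higher after CLP, with no overlap between the groups. The zinc importers Slc39a14, Slc39a10 and Slc39a8 were also higher in every CLP library than in any Sham library. The sensor Mtf1, the exporters Slc30a1 and Slc30a4 and the importer Slc39a6 had overlapping groups. Past an adjusted p of 0.05 in edgeR's quasi-likelihood test over all genes were 5 of the 9 genes, all higher in CLP, against 54.3% of the genes tested in either direction and 24.9% upward. The groups did not overlap for the same 5 genes, against 49.5% of genes tested, 22.1% with CLP higher and 27.3% with CLP lower. The median log2 fold change was 0.59 over the 9 genes and -0.04 over all genes tested. Nothing is read from these shares, since the genes were picked on this comparison.

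**Figure D1:**
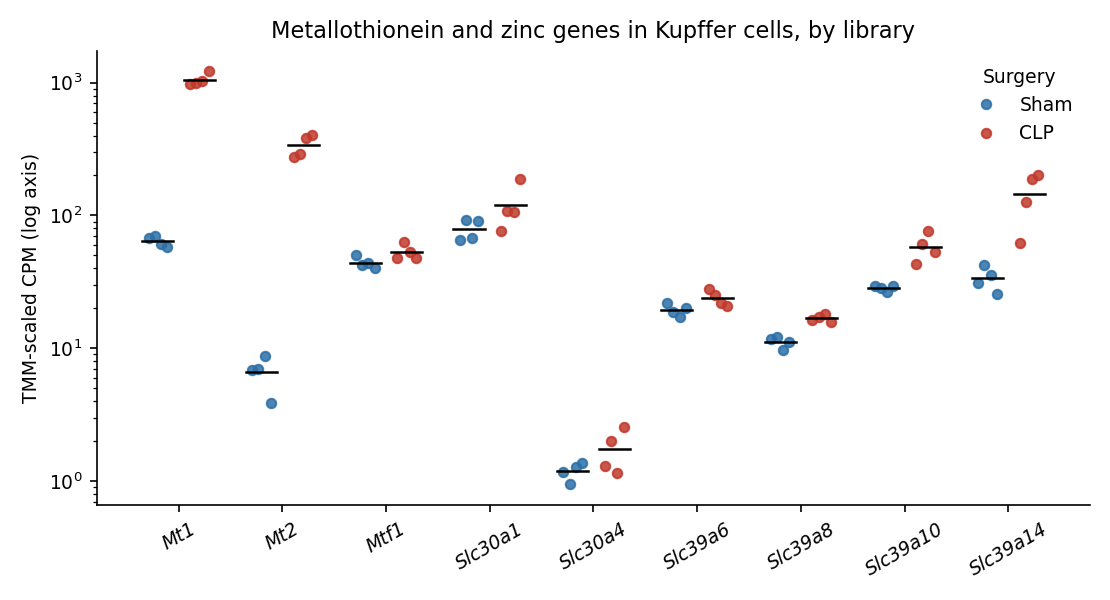
Each point is 1 library and each black line a group mean, with TMM-scaled CPM on a log axis for the 9 genes in 4 Sham (blue) and 4 CLP (red) libraries. Mt1 and Mt2 show the widest gaps, from 64.2 to 1052 CPM and from 6.59 to 337 CPM on average, while the points of Mtf1, Slc30a1, Slc30a4 and Slc39a6 overlap.

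Mt1 (ENSMUSG00000031765) stood at 981, 987, 1025 and 1217 CPM in CLP replicates 1 to 4 and at 67.6, 70.6, 61.4 and 57.4 CPM in Sham replicates 1 to 4. The libraries were tightly grouped, with a coefficient of variation of 10.6% in CLP and 9.28% in Sham. CLP was 16.4-fold above Sham, a log2 fold change of 4.03 ± 0.14 (SE), or 3.48 with total-count scaling. By the log2 fold change with TMM scaling, Mt1 ranked 146 and Mt2 41 among the 14655 genes tested, from the largest rise down. Per kilobase of exon, Mt1 ranked 644 in Sham and 45 in CLP among 14594 genes with a known length.

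Mt2 (ENSMUSG00000031762), which encodes the second widely expressed metallothionein, stood at 275, 293, 381 and 400.4 CPM in CLP and at 6.88, 6.92, 8.69 and 3.88 CPM in Sham. CLP replicates 3 and 4 were higher than replicates 1 and 2, and Sham replicate 4 was the lowest of the 8 libraries. The Sham values rest on 127 to 259 counts a library. At 51.2-fold, its log2 fold change of 5.68 ± 0.27 exceeded that of Mt1. With total-count scaling it was 5.12, against 3.48 for Mt1. Together the pair took 0.102% to 0.134% of all counts in CLP and 0.00756% to 0.00907% in Sham, shares that do not depend on the TMM factors.

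The balance within the pair differed too. Counts of Mt2 were 28.1%, 29.6%, 37.2% and 32.9% of those of Mt1 in CLP replicates 1 to 4. In Sham they were 10.2%, 9.81%, 14.2% and 6.76%. The group values were 32.0% ± 4.04 and 10.2% ± 3.03 (SD, n = 4), and the highest Sham value was below the lowest CLP value. A ratio within a library does not depend on the scaling. Corrected for exon length (1246 bases for Mt1 and 588 for Mt2), the ratio was 67.7% in CLP and 21.7% in Sham. These 2 values depend on the length used. With the mean transcript length, a setting added after the data were seen, both ratios were lower. Mt2 was then at 750.7 CPM per kilobase in CLP against 1393 for Mt1, and at 14.7 in Sham against 85. An antisense gene, Gm45774, overlaps 432 exon bases of Mt2. It held 86 counts in CLP and 17 in Sham, 0.348% of the counts of Mt2, and reads of the 2 genes cannot be told apart, because no source used here gives the strand setting of the count. Of the 75-base stretches of Mt2 transcripts, 30.2% also occur in Gm45774, read on either strand. How many Mt2 reads this overlap left uncounted is not known, which limits the level of Mt2 and its ratio to Mt1. None of the 75-base stretches of Mt1 transcripts occurs in transcripts of another gene.

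**Figure D2:**
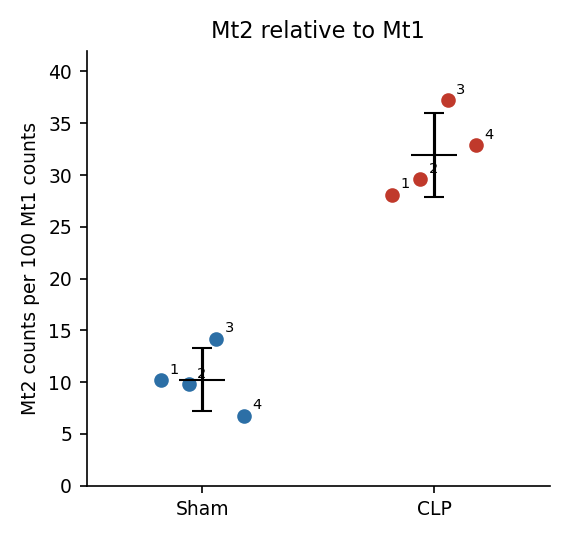
Points are libraries, numbered by replicate, with the counts of Mt2 as a percentage of those of Mt1, and the black marks give the mean and SD of each group (n = 4). The 4 CLP libraries lie between 28.1% and 37.2%, all above the 4 Sham libraries at 6.76% to 14.2%.

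Mt3, known from the brain, and Mt4, known from stratified epithelium, had 0 counts in all 8 libraries, which allows up to 0.029 CPM after CLP against 0.0283 CPM after Sham over each group's total (3 counts; counting error only). Of the coding genes on either side of the row, Nup93, a nuclear pore protein next to Mt1, was at 20.8 ± 1.67 CPM after CLP against 18.2 ± 1.15 CPM after Sham (log2 fold change 0.19 ± 0.11; edgeR adjusted p = 0.154). Bbs2, a ciliary protein next to Mt4, fell by 0.78 ± 0.20 on the log2 scale (edgeR adjusted p = 0.00647). These flanking genes were chosen after the values were seen.

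Mtf1 (ENSMUSG00000028890), the zinc-sensing transcription factor itself, had overlapping groups. It stood at 48.0, 63.3, 53.5 and 47.4 CPM in CLP and at 50.3, 42, 43.8 and 40.2 CPM in Sham. Sham replicate 1 lay above 2 of the 4 CLP libraries. The log2 fold change was 0.27 ± 0.12 and did not pass the threshold. It passed in 4 of 13 alternatives, among them total-count scaling, where it was -0.29 and called lower, so no direction is given. Activity of MTF1 is controlled by zinc binding and entry into the nucleus, which transcript counts do not show. The gene 1110065P20Rik overlaps 721 of its exon bases and held 5.34% as many counts.

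Slc30a1 (ENSMUSG00000037434) encodes ZnT1, which exports zinc across the plasma membrane. It stood at 76.5, 108, 106 and 187 CPM in CLP and at 65.2, 92.5, 67.8 and 91.2 CPM in Sham. CLP replicate 1 lay inside the Sham range, and CLP replicates 2 to 4 lay above it, replicate 4 by far the most. The log2 fold change was 0.59 ± 0.25, with 0.76 without CLP replicate 1 and 0.30 without CLP replicate 4. It did not pass the threshold with all libraries in edgeR, and passed in 3 of 13 alternatives: without CLP replicate 1, with DESeq2 and with the replicate block. With total-count scaling the log2 fold change was 0.04. The antisense gene 1700034H15Rik overlaps 468 of its exon bases and held 0.682% as many counts.

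Slc30a4 (ENSMUSG00000005802) encodes ZnT4, which loads zinc into vesicles. It had few reads, with 146 counts in the 4 CLP libraries together and 152 in Sham. CPM values were 1.29, 1.99, 1.15 and 2.54 in CLP and 1.16, 0.945, 1.27 and 1.38 in Sham. CLP replicates 2 and 4 lay above all Sham libraries and the other 2 lay among them. Its log2 fold change was 0.54 ± 0.31, and -0.02 with total-count scaling, so no direction is given.

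Among importers, Slc39a14 (ENSMUSG00000022094) differed most. It encodes ZIP14, a plasma membrane carrier of zinc, manganese and iron not bound to transferrin. The values were 62.2, 127, 189 and 203 CPM in CLP and 30.9, 42.2, 35.4 and 25.8 CPM in Sham. Every CLP library was above every Sham library, but the CLP libraries spanned 3.26-fold, the widest span of any of the 9 genes in either group. CLP was 4.32-fold above Sham (log2 fold change 2.11 ± 0.32), and the log2 fold change without CLP replicate 1 was 2.36. With total-count scaling and all libraries it was 1.56.

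Slc39a10 (ENSMUSG00000025986) encodes ZIP10, an importer of the plasma membrane. It stood at 43.0, 60.6, 75.9 and 52.7 CPM in CLP and at 29.7, 28.7, 26.5 and 29.4 CPM in Sham. Sham libraries were within 1.12-fold of each other, and CLP libraries within 1.76-fold. CLP was 2.03-fold above Sham (log2 fold change 1.02 ± 0.16). With total-count scaling the log2 fold change was 0.47 and still past the threshold.

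Slc39a8 (ENSMUSG00000053897) encodes ZIP8, a carrier of zinc and manganese whose gene is a known NF-kB target. It stood at 16.3, 17.3, 18.0 and 15.8 CPM in CLP and at 11.7, 12.1, 9.62 and 11.2 CPM in Sham. This was the smallest difference among the 5 genes past the threshold (log2 fold change 0.59 ± 0.12), and the CLP libraries had the lowest coefficient of variation of any of the 9 genes in CLP, 5.83%. With total-count scaling the log2 fold change was 0.04 and not past the threshold. The same log2 fold change in Slc30a1 came with a coefficient of variation of 39.7% in CLP.

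Slc39a6 (ENSMUSG00000024270) encodes ZIP6, the closest relative of ZIP10. It stood at 28.1, 25.0, 22.0 and 20.97 CPM in CLP and at 21.7, 18.8, 17.1 and 19.9 CPM in Sham. Only CLP replicate 4 fell below the highest Sham library. The log2 fold change was 0.31 ± 0.13, against 1.02 ± 0.16 for Slc39a10, and -0.24 with total-count scaling, so no direction is given.

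CLP replicate 1 was the lowest CLP library for Mt1, Mt2, Slc30a1, Slc39a10 and Slc39a14, 5 of the 9 genes, and the highest for Slc39a6. It was the lowest CLP library for 37.6% of all genes tested and for 58.5% of those called higher in CLP. Without it, the log2 fold changes of Mt1 and Mt2 were 4.07 and 5.77.

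Markers of neutrophils, cells that carry their own zinc-binding proteins, moved with some of these genes. Across CLP replicates 1 to 4 the summed neutrophil markers were 258, 386, 671 and 650 CPM. Csf3r, the most abundant of them, stood at 148, 237, 318 and 283 CPM and so weighed most in the sum. Mmp9 went another way, highest in replicate 1 at 39.7 CPM and lowest in replicate 3 at 22.3 CPM. Like the sum, Slc39a14, Mt2 and Mt1 were lowest in replicate 1, next in replicate 2 and highest in replicates 3 and 4. For Mt1, replicates 1 and 2 were close, at 981 and 987 CPM. CLP replicate 1 was also the lowest CLP library for 58.5% of all genes called higher. S100a8 and S100a9, whose protein complex calprotectin chelates zinc, were at 18.9 to 86.5 and 20.4 to 99.3 CPM in CLP and at 0.764 to 1.65 and 0.581 to 2.32 CPM in Sham. Among 6 other zinc genes, Mtf1 included, these were the only 2 of the 4 tested to rise, by 5.39 ± 0.52 and 5.55 ± 0.60 on the log2 scale (edgeR adjusted p = 1.7e-05 and 3.6e-05). Both are also among the neutrophil markers summed above. Of all genes tested, 24.9% were called higher, and nothing is read from the count. Ly6g, which defines neutrophils, was at 0 in all Sham libraries and at 0.125 to 0.687 CPM in CLP. The part of neutrophil RNA in the values of Slc39a14, Mt2 and Mt1 was not tested.

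Hepatocytes are known for strong metallothionein expression, and their transcripts were present in every library. Albumin (Alb) was at 2005 to 2777 CPM after CLP against 1409 to 2031 CPM after Sham, with a log2 fold change of 0.40 ± 0.16 (edgeR adjusted p = 0.0569). The log2 fold changes of Apoa1 and Ttr, the other defining markers, were 0.10 and 0.15 (edgeR adjusted p = 0.544 and 0.436). Of the other hepatocyte markers, Trf, Apob, Fgb and Fgg rose by 0.35, 0.58, 0.58 and 0.64 on the log2 scale (edgeR adjusted p = 0.0413, 0.00871, 0.0288 and 0.0273), and Hnf4a fell by 0.88 (edgeR adjusted p = 0.00486). The summed hepatocyte markers were 1.28 times as high in CLP as in Sham (0.873 times with total-count scaling). With TMM scaling Mt1 was 16.4 times as high, a log2 fold change of 4.03, and 3.48 with total-count scaling. How much of the metallothionein signal in either group came from hepatocyte RNA was not tested.

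**Figure D3:**
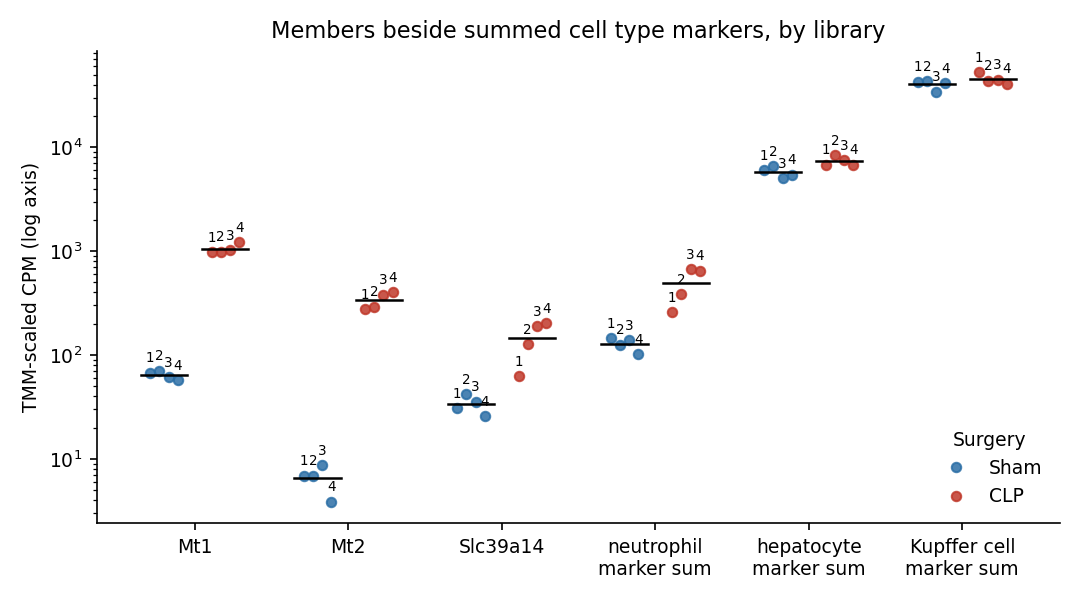
Points are libraries, numbered by replicate, and black lines are group means, on a log axis of TMM-scaled CPM, for Mt1, Mt2, Slc39a14 and the sums of 12 neutrophil, 17 hepatocyte and 14 Kupffer cell markers. Slc39a14, Mt2, Mt1 and the neutrophil sum are lowest in CLP replicate 1 (62.2, 275, 981 and 258 CPM) and higher in replicates 3 and 4. The hepatocyte sum is highest in replicate 2.

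Levels can be compared between genes only per length. In Sham, CPM per kilobase of exon was 51.6 ± 4.78 for Mt1, 15.1 ± 2.80 for Slc30a1, 11.2 ± 3.39 for Mt2, 4.95 ± 0.494 for Mtf1, 4.76 ± 0.474 for Slc39a6 and 4.68 ± 0.236 for Slc39a10 (SD, n = 4). It was 3.18 ± 0.659 for Slc39a14, 1.46 ± 0.143 for Slc39a8 and 0.217 ± 0.0337 for Slc30a4. Slc30a1 and Mt2 overlapped between libraries, as did Mtf1, Slc39a6 and Slc39a10. In CLP, Mt1 was at 845 ± 89.3 and Mt2 at 574 ± 107 CPM per kilobase, and Slc30a1 came next at 22.8 ± 9.04. Slc39a14, Slc39a10, Mtf1 and Slc39a6 followed at 13.7 ± 6.10, 9.53 ± 2.28, 5.95 ± 0.824 and 5.90 ± 0.793, each overlapping with the gene before it. Slc39a8 at 2.20 ± 0.128 and Slc30a4 at 0.318 ± 0.118 overlapped with no neighbour in the order. Lengths are unions of exons, and with the mean transcript length instead, a setting added after the data were seen, Slc39a14 moved from place 7 to 3 in Sham and from 4 to 3 in CLP. The Sham means of Slc30a1 and Mt2 were then 26.7 and 14.7 CPM per kilobase, so how near these levels lie depends on the length used.

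The rest of the ZnT and ZIP families moved in both directions. Of 18 transporter genes outside the 9, 13 were tested, 2 rose, 4 fell and 7 did not pass (median log2 fold change 0.08). With total-count scaling 3 of the 7 ZnT genes and 5 of the 12 ZIP genes tested were called lower, where TMM scaling gave 1 and 3. Shares upward and downward among all genes tested were 24.9% and 29.5%. As the 9 genes were picked with results known, the split between them and the remaining genes is no result. Slc39a1 encodes ZIP1, a plasma membrane importer, and rose from 180.4 ± 35.8 to 442 ± 34.8 CPM (log2 fold change 1.29 ± 0.15; edgeR adjusted p = 4.7e-05). At 187 CPM per kilobase in CLP and 76.3 in Sham it stood above every transporter among the 9 genes in both groups.

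Slc30a6, whose ZnT6 protein pairs with ZnT5 in the Golgi, rose from 10.8 ± 2.52 to 31.9 ± 3.596 CPM (log2 fold change 1.57 ± 0.17; edgeR adjusted p = 3.4e-05). Slc30a5, which encodes ZnT5, had a log2 fold change of -0.24 ± 0.09 (edgeR adjusted p = 0.0485), at 55.0 ± 4.16 CPM after CLP against 65.0 ± 2.11 CPM after Sham. That call was lost in 11 of 13 alternatives, among them leaving out any 1 library. The plasma membrane importer Slc39a3 fell from 20.8 ± 1.03 to 6.98 ± 0.640 CPM (log2 fold change -1.57 ± 0.12; edgeR adjusted p = 5.1e-06). Slc39a9 and Slc39a13, whose proteins release zinc from the secretory pathway, fell by 0.81 ± 0.12 and 0.59 ± 0.15 on the log2 scale (edgeR adjusted p = 2.1e-04 and 0.00586). Slc30a2, Slc30a3, Slc30a8, Slc39a2 and Slc39a5 were too low to be tested.

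**Figure D4:**
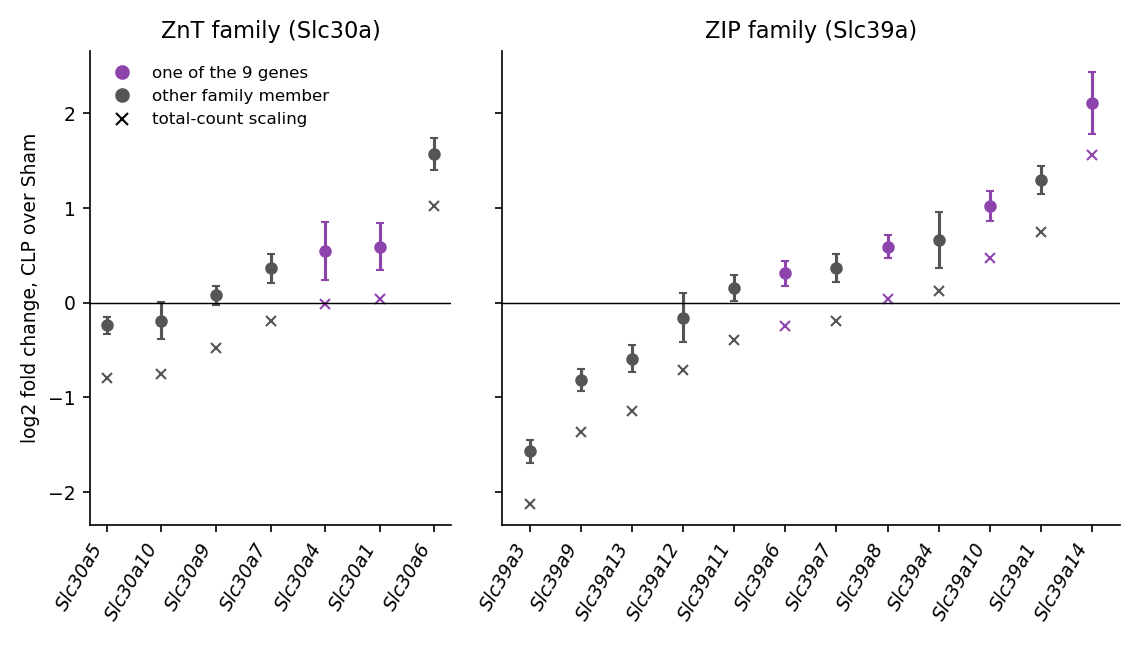
Circles give the log2 fold change of CLP over Sham with TMM scaling and bars its SE, crosses the same with total-count scaling, for the tested genes of the ZnT family (7) and the ZIP family (12), with the genes among the 9 in purple. The range runs from -1.57 for Slc39a3 to 2.11 for Slc39a14, and the crosses of Slc30a4 and Slc39a6 lie below 0.

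Copper is the other metal that metallothioneins hold. Of 14 copper handling genes, all tested, 7 rose and none fell (median log2 fold change 0.55), where 24.9% of all genes tested rose and 29.5% fell. The list was chosen with earlier results of these data known, so nothing is read from these shares. Atp7a, the copper pump of the Golgi and of phagosomes, rose from 81.2 ± 4.46 to 179 ± 17.6 CPM (log2 fold change 1.14 ± 0.11; edgeR adjusted p = 1.4e-05). Steap4, a metal reductase, rose from 33.3 ± 14.1 to 275 ± 71.9 CPM (3.05 ± 0.33; edgeR adjusted p = 3.7e-05). Atox1, the chaperone that hands copper to Atp7a, rose by 0.82 ± 0.11 on the log2 scale (edgeR adjusted p = 1.6e-04). With total-count scaling 4 of the 14 rose and 5 fell, so the split depends on the scaling, while Atp7a, Steap4 and Atox1 stayed higher. Slc31a1, Slc31a2 and Steap2 then no longer passed. Steap2, at 1.15 ± 0.51 CPM after CLP against 0.489 ± 0.11 CPM after Sham, passed in 6 of 13 alternatives.

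Metallothionein genes are known to respond also to IL-6 through STAT3 and to glucocorticoids, and of 10 genes of these signals 5 rose, 4 fell and 1, Per1, did not pass. Of all genes tested, 54.3% were called, 24.9% higher and 29.5% lower. This list too was chosen with earlier results known, so nothing is read from its counts. Il6, its receptor chain Il6st, Stat3, the feedback inhibitor Socs3 and the glucocorticoid receptor gene Nr3c1 rose, and Il6ra, Fkbp5, Tsc22d3 and Zbtb16 fell. Tsc22d3, a standard glucocorticoid target, was at 70.8 ± 18.1 CPM after CLP against 434 ± 97.7 CPM after Sham (log2 fold change -2.62 ± 0.23; edgeR adjusted p = 9.3e-06). Socs3 was at 2553 ± 321 CPM after CLP against 170.3 ± 96.5 CPM after Sham (3.91 ± 0.35; edgeR adjusted p = 1.1e-05). Il6 stood at 849.5, 917, 139 and 483.5 CPM in CLP replicates 1 to 4 and at 26.6, 14.7, 16.3 and 14.8 CPM in Sham (5.04 ± 0.55; edgeR adjusted p = 3.5e-05). The part of these signals in the metallothionein values was not tested. With total-count scaling Nr3c1 did not pass (log2 fold change 0.24), and the call of Zbtb16 was lost in 5 of 13 alternatives, those without CLP replicate 1 or 2 or without Sham replicate 2, 3 or 4.

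The genes most like Mt1 in their pattern over the 8 libraries were found by the root mean square difference of log2 CPM centred on each gene's mean. The nearest 5 were Ifi205 (0.22), an interferon-inducible gene of a family of near-identical copies, Mapk6 (0.24), which encodes the kinase ERK3, Tubb6 (0.26), a beta tubulin, Clic4 (0.27), a chloride intracellular channel protein, and Gm6377 (0.28). Mapk6, for example, stood at 1054 to 1367 CPM after CLP against 73.9 to 129 CPM after Sham. Mt2 ranked 389 at a difference of 0.88, and Slc39a14 ranked 657 at 1.11. This is a description of 8 libraries in 2 groups, in which any gene with a rise of the same size lies near Mt1.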

How the data were processed

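The authors deposited 1 table of raw read counts for 8 libraries. FastQC, STAR 2.7.10b, featureCounts, DESeq2 and the assembly mm39 are named in the submitters' processing notes. Libraries were stranded and made from total RNA, per the labels' protocols. The strand setting of the count and the annotation release were not given in the sources used here. Symbols matched 52081 of 55414 IDs, which hold 99.8% of counts. Symbols and lengths come from GENCODE M21 and promoter windows from RefSeq, both on the earlier build GRCm38, so the only coordinates printed are those of the windows.

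In R 4.3.3, edgeR 4.0.16 compared CLP with Sham by its robust quasi-likelihood F-test, with TMM scaling and the filterByExpr filter and no covariate. Benjamini-Hochberg adjustment covered all 14655 genes tested. An SE was taken as the absolute log2 fold change over the root of F. Alternatives used DESeq2 1.42.0 and limma voom (3.58.1), other filters and scaling, a replicate block and leaving out each library. The fit was also run on simulated data in which few genes changed, equal numbers up and down. That run does not test the scaling for data in which 54.3% of genes were called.

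Members and gene lists were chosen with earlier results of these data known. Besides the 9 genes, those named are the 3 of smallest p in each list among genes past the threshold, the 5 genes nearest to Mt1, the most abundant and defining markers, and members of counts of 5 or fewer, which were named after their values were seen. Markers of monocytes, endothelial cells, stellate cells, platelets, B cells, T and NK cells and red cells were summed too.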

Additional observations from a re-analysis of the deposited data

How the results depend on the processing

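With total-count scaling the genes called numbered 1715 higher and 8292 lower, in place of 3644 and 4319. The log2 fold changes of Mtf1, Slc30a4 and Slc39a6 then turned to -0.29, -0.015 and -0.24, and those of the other 6 genes kept their sign in all 13 alternatives. Mt1, Mt2, Slc39a10 and Slc39a14 passed the threshold in all 13 and Slc39a8 in 12. DESeq2 called 8 of the 9 genes. Leaving out 1 library gave 5 to 7 of the 9 and 6960 to 9232 genes in all.

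In the ZnT family, 1 gene was higher and 1 lower. DESeq2 gave 3 higher and 0 lower, the replicate block 2 and 0, total-count scaling 3 lower, no filter on low counts 0 lower, and leaving out 1 library 1 to 3 higher and 0 lower. In the ZIP family, DESeq2 called 7 higher in place of 4, and total-count scaling 5 lower in place of 3. Among other zinc genes, 2 were higher, 4 with DESeq2, 2 to 4 without 1 library (4 without CLP replicate 1), and total-count scaling called 1 lower. Copper handling genes gave 4 higher and 5 lower with total-count scaling, and 0 to 1 lower without 1 library.

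Marker sums in CLP over Sham were 1.13 for Kupffer cells, 1.28 for hepatocytes, 1.32 for monocytes, 1.03 for endothelial cells and 1.36 for stellate cells. With total-count scaling they were 0.772, 0.873, 0.899, 0.704 and 0.927. Those of neutrophils, platelets, B cells, T and NK cells and red cells went from 3.85, 8.14, 1.04, 2.34 and 1.97 to 2.62, 5.57, 0.712, 1.6 and 1.35.

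Replicate numbers are shared by both groups, but same-numbered libraries did not deviate together (correlations across genes of 0.172, -0.125, 0.126 and -0.0853 for numbers 1 to 4), so the values reported come from a fit without a block. With the replicate block 7794 genes passed in all and 6 of the 9, Slc30a1 among them. The cause of these shifts was not tested. Depth limits Slc30a4, which has fewer counts than any of the other 8 genes.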
